A study of Aspergillus nidulans and Aspergillus wentii with 48 samples.

Results

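*Aspergillus wentii* CBS141173, an osmophilic reference strain, was exposed to NaCl, to sorbitol and to both at once, and the question here was whether the mRNA response to both is what the responses to each would give when put together. The 12 CBS141173 libraries form a square of 4 groups with 3 biological replicates each: NaCl + sorbitol, NaCl, sorbitol and untreated. They are 12 of the 48 libraries of the series, and they were chosen by strain alone. For each ASPWEDRAFT gene (the locus names of the *A. wentii* genome) the NaCl by sorbitol term was calculated as NaCl + sorbitol minus NaCl minus sorbitol plus untreated, on the log2 scale. A term of 0 means that the 2 single fold changes multiply in the combined treatment. A negative term means that the combined level lay under that product, and a positive term that it lay over it.

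All mycelia were grown for 65 h in Barratt's minimal broth, washed, and moved to fresh broth with both agents, with NaCl only, with sorbitol only, or with neither. NaCl was used at 1 M and sorbitol at 2 M, each at the same dose alone and in the combination. They were sampled after 0.5 h. These doses are those of the treatment protocol and the paper, while the series record gives the molarities of the 2 agents the other way round. Untreated cultures were washed and moved in the same way, so they share the transfer with the treated ones. CBS141173 has the glycerol 3-phosphate dehydrogenase gene *gfdA* and lacks *gfdB*. A strain made from it, ′c *gfdB*, carries the *A. nidulans gfdB* gene and received the same 4 treatments. Its 12 libraries are used below for 1 comparison only.

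Fungal cells that lose water to a concentrated medium restore it by making and retaining small solutes, chiefly glycerol. In *A. nidulans* and in yeast a phosphorelay of histidine kinase, phosphotransfer protein and response regulators controls a mitogen-activated protein (MAP) kinase cascade, the HOG (high osmolarity glycerol) pathway. The kinase acts through transcription factors on genes for glycerol synthesis and transport. Sorbitol loads the medium with an uncharged sugar alcohol, and NaCl adds ions that the cell must also keep out. Catalases, peroxidases and thioredoxin enzymes remove peroxides, and some of their genes are targets of the same pathway in *Aspergillus* species.

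The libraries held 13871785 to 32274107 reads assigned to genes (median 20614453). Of 12659 genes, 11020 had enough reads for the test. Replicates of NaCl + sorbitol correlated at 0.9768 or above (Pearson's r of log2 CPM across genes, CPM being counts scaled to library size), those of NaCl at 0.9635, of sorbitol at 0.9295 and of untreated cultures at 0.9721. The sorbitol libraries were the most spread, with a median replicate SD of 0.416 on the log2 scale against 0.232, 0.268 and 0.243 in NaCl + sorbitol, NaCl and untreated cultures. On the second principal component, which held 22.6% of the variance, the 3 sorbitol libraries lay at 19.5, −64.8 and −22.2. The actin gene ASPWEDRAFT_168397 was present in every library, at 918 to 1630 RPKM (reads scaled to gene length and library total). The orthologue of the conidial catalase gene *catA*, ASPWEDRAFT_48635, stayed at 0.352 to 1.91 RPKM. In RNA from whole mycelium, fewer hyphae that express a gene and less RNA per hypha cannot be told apart.

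The response to both agents together was not the product of the single responses for 44% of the genes tested. The term was called for 4844 of 11020 genes, with an adjusted p under 0.05 and a size of more than 2-fold (edgeR's quasi-likelihood F-test, Benjamini-Hochberg adjustment). It was negative for 2700 genes (24.5%) and positive for 2144 genes (19.5%). The negative terms were the larger ones, with a median of −2.59 and quartiles of −4.00 and −1.74, while the positive terms had a median of 1.63 and quartiles of 1.31 and 2.13. Over all genes tested the median was −0.04. Leaving out 1 library at a time gave 2487 to 2870 negative and 1837 to 2365 positive terms, and 2259 of the 2700 negative and 1566 of the 2144 positive calls stood in each of these 12 fits.

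At the median, genes with a negative term were above untreated cultures under each agent alone and near them under both. Their median log2 change from untreated cultures was 0.13 in NaCl + sorbitol, 1.58 in NaCl and 1.24 in sorbitol. In 2429 of the 2700 (90%) the fitted combined level was under that of both single treatments, against 38.7% of all genes tested. In 1587 (58.8%) all 3 NaCl + sorbitol libraries lay under all 6 single-treatment libraries in CPM, against 17.8% of all genes tested. Genes with a positive term were the mirror image at a smaller scale, with median changes of −0.10 in NaCl + sorbitol, −1.01 in NaCl and −0.77 in sorbitol. The combined level was over both single levels in 1915 of these 2144 genes (89.3%), against 35.8% of all genes tested. These shares describe the same libraries that the calls were made on and are not a separate test. A combined level within 2-fold of untreated cultures was found for 72% of the genes with a negative and 81.7% of those with a positive term, and also for 76% of all genes tested.

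**Figure D1:**
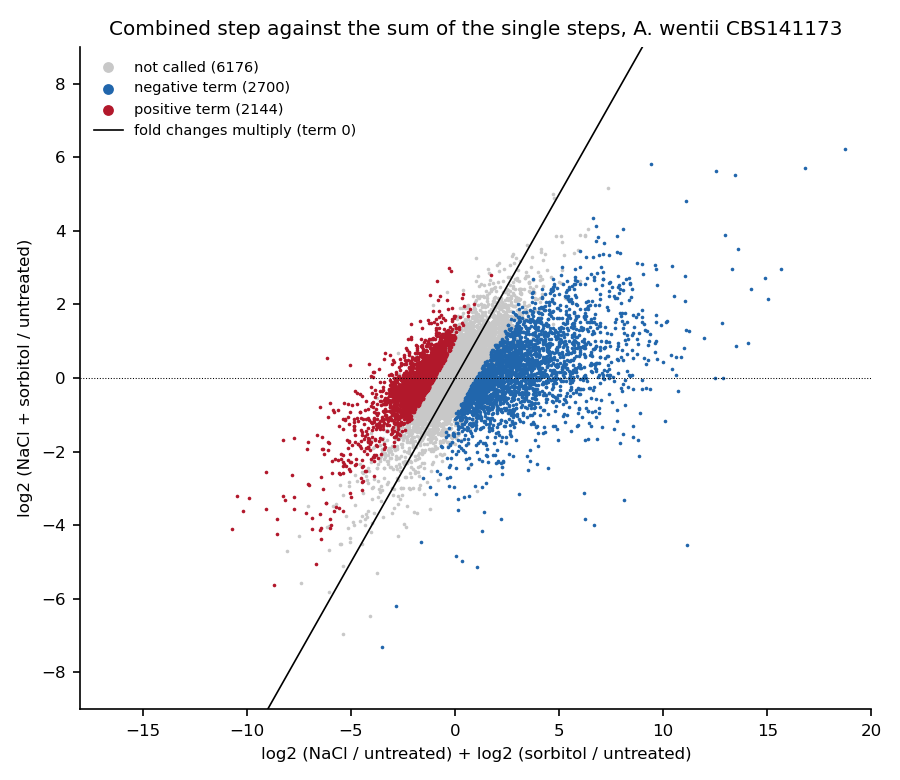
Each point is 1 of the 11020 genes tested, with the sum of its 2 single log2 changes from untreated cultures on the x axis and its log2 change in NaCl + sorbitol on the y axis, and the solid line marks a term of 0. The 2700 genes with a negative term (blue) spread to the right of the line near a combined change of 0, and the 2144 with a positive term (red) lie to its left. Both axes are measured from the same 3 untreated libraries.

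The called terms fell into several shapes, set by the fitted group levels. In 839 genes, 31.1% of those with a negative term, both single treatments were more than 2-fold above untreated cultures and the combined level was more than 2-fold under the lower of them. This shape is called a lost peak here. The median changes of these genes were 0.10 in NaCl + sorbitol, 2.70 in NaCl and 2.12 in sorbitol, and their median term was −4.73. In another 577 (21.4%) both single treatments were more than 2-fold above untreated cultures and the combined level was not that far under them, a shape called a ceiling, with median changes of 1.19, 1.98 and 1.69 in NaCl + sorbitol, NaCl and sorbitol. In 533 genes with a negative term (19.7%, against 8.5% of all genes tested) only NaCl was more than 2-fold above untreated cultures. In 207 (7.67%, against 5.54%) only sorbitol was. Neither single treatment was more than 2-fold away from untreated cultures in 532 (19.7%, against 54% of all genes tested). Of these, 112 had both single levels within 2-fold of untreated cultures and the combined level more than 2-fold under it. They were 4.15% of the negative terms, near the 3.16% of all genes tested with such levels. This class was described after the values were seen.

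Lost troughs were rarer. Both single treatments were more than 2-fold under untreated cultures and the combined level more than 2-fold over the higher of them in 116 genes, 5.41% of the positive terms, with median changes of −0.22, −1.76 and −1.62 in NaCl + sorbitol, NaCl and sorbitol. A floor was found for 408 genes (19%). Here both single treatments were also more than 2-fold under untreated cultures, and the combined level was not more than 2-fold over the higher of them. The combined level was within 2-fold of untreated cultures in 196 of these (48%), and the median changes were −1.04, −1.73 and −1.38 in the same order. Without sorbitol replicate 2 there were 202 lost troughs and 629 floors. The other 1620 positive terms (75.6%) had at most 1 single treatment more than 2-fold under untreated cultures, with a median change of −0.82 in NaCl. On the linear scale, where a term of 0 means that the differences add, the sign was the same for 2696 of the 2700 negative and 2144 of the 2144 positive terms.

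**Figure D2:**
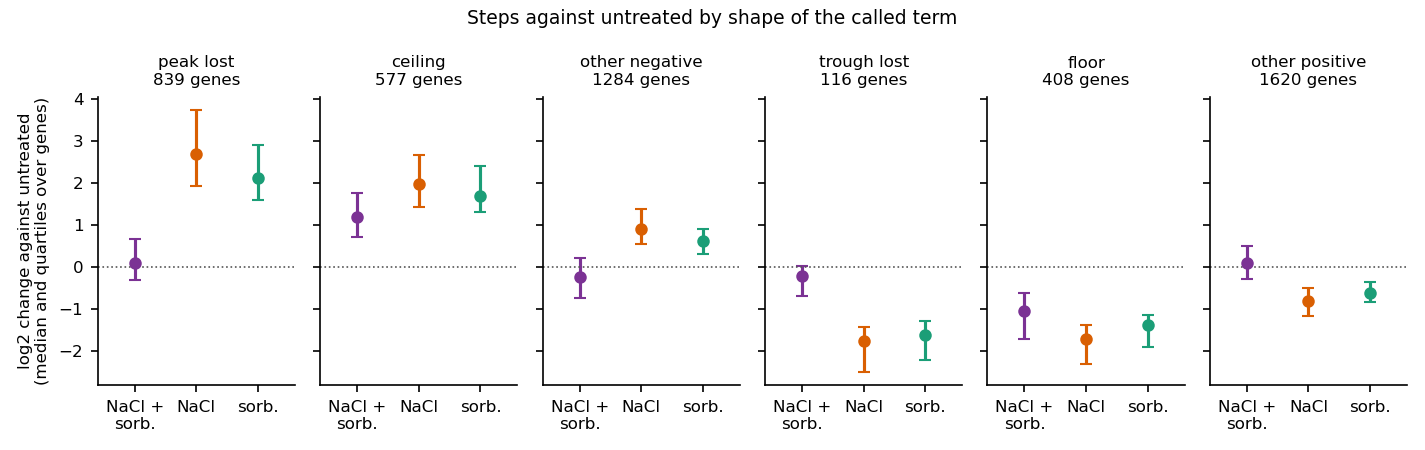
Median log2 change from untreated cultures (point) with the quartiles over genes (bar) for NaCl + sorbitol, NaCl and sorbitol, in each of 6 shapes of called terms. The genes with a lost peak have a combined median of 0.10 under single medians of 2.70 and 2.12, while the genes with a ceiling keep a combined median of 1.19.

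Negative terms were more common among weakly transcribed genes. In the lowest quartile of mean level 35% of genes had a negative and 9.55% a positive term, and in the highest quartile 19.8% and 22.4%. The precision of a term also depends on the level, so these shares were not compared by a test. The median level of the genes with a negative term was 5.26 RPKM in NaCl + sorbitol, 15.2 in NaCl, 13.3 in sorbitol and 4.55 in untreated cultures. That of the genes with a positive term was 31.9, 16.7, 22.3 and 38.6 RPKM in the same groups, and that of all genes tested 14.8, 15.7, 17.8 and 16.1 RPKM. Under NaCl alone the genes with a negative term were thus near the median of all genes tested. Deposited gene lengths were alike, with a median of 1401 bases for negative, 1320 for positive and 1382 for all genes tested.

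The study listed *A. wentii* orthologues for the osmotic stress response, for glycerol and for oxidative stress, and measured further genes by RT-qPCR. Together these are 117 genes, of which 106 were tested. The term was negative for 38 (35.8%) and positive for 11, so that 46.2% were called, near the 44% of all genes tested. Their median term was −0.56 against −0.04 over all genes tested. The combined treatment alone, set against untreated cultures, called 1046 genes higher (9.49%) and 882 lower (8%) over all genes tested. The first of these counts was 662 without untreated replicate 1, 666 without untreated replicate 3 and 690 without NaCl + sorbitol replicate 2. Counts of called members in the lists below stand beside 24.5% negative and 19.5% positive terms over all genes tested. Among the 106 listed genes tested 17 had a lost peak and 0 a lost trough, against 839 and 116 of all 11020 genes tested. The 0 lost troughs are near the share over all genes. The glycerol list had the most negative terms, 15 of 31 tested, with 2 positive and a median of −1.49. The osmotic stress list had 8 negative and 2 positive terms among 23 tested (median −0.31), and the oxidative stress list 13 and 5 among 44 (median −0.51).

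**Figure D3:**
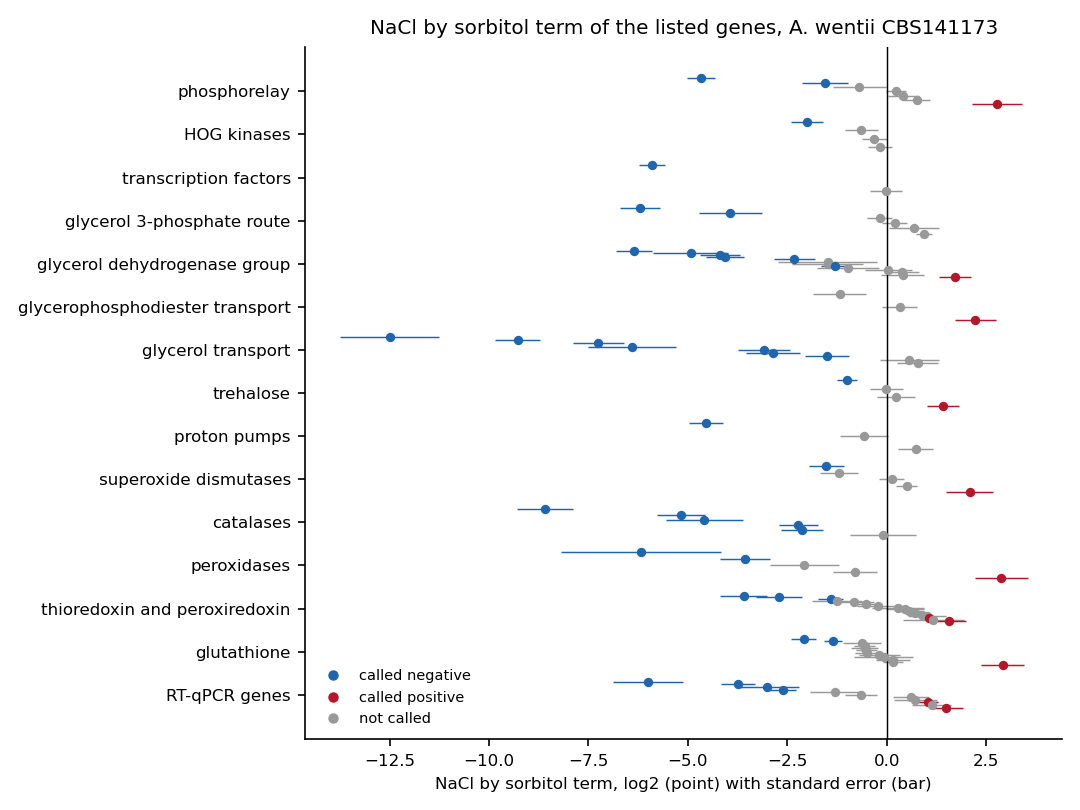
NaCl by sorbitol term on the log2 scale (point) with its standard error (bar) for the tested members of 15 lists, blue where called negative, red where called positive and grey where not called. The glycerol transport and catalase lists lie mostly left of 0, with 7 of 9 and 5 of 6 members called negative, while 11 of 16 thioredoxin and peroxiredoxin genes and 9 of 12 glutathione genes were not called.

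In the phosphorelay the term was called for 3 of 7 genes (42.9%, near the 44% of all genes tested), of which 2 were negative and 1 positive. The gene of the phosphotransfer protein, *ypdA* (ASPWEDRAFT_99233), which passes phosphate between histidine kinase and response regulators, had 48.8, 34.1 and 54.4 RPKM in NaCl + sorbitol, 128.3, 190.3 and 183.2 in NaCl, 118.0, 111.7 and 159.0 in sorbitol, and 16.8, 21 and 15.3 in untreated cultures. The 4 groups were ordered without overlap between NaCl + sorbitol and any other group. Its term was −4.66 ± 0.35 (SE, adjusted p = 1.36e-06), and its combined level still rose over untreated cultures, by 1.39 ± 0.24 on the log2 scale (adjusted p = 0.00234). The response regulator gene *srrA* (ASPWEDRAFT_202686) went the other way. It had 18.6, 18.7 and 28.6 RPKM in NaCl + sorbitol, 14.2, 4.5 and 4.57 in NaCl, 17, 42.4 and 29.2 in sorbitol, and 65.1, 47.9 and 85.8 in untreated cultures, and its term was 2.76 ± 0.63 (adjusted p = 0.00331). All 9 treated libraries lay under the 3 untreated ones, and the NaCl libraries were the lowest.

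One of the 4 orthologues of the histidine kinase gene *nikA*, ASPWEDRAFT_184594, had a term of −1.55 ± 0.58 (adjusted p = 0.0433), a call that was lost when any 1 of 9 libraries was left out or with the limma tests. The other response regulator gene, *sskA* (ASPWEDRAFT_99575), had 21.4, 19.9 and 24.7 RPKM in NaCl + sorbitol and 16.2, 20.1 and 18.7 in untreated cultures, with a term of 0.24 ± 0.25. The kinases of the cascade were not called either. The MAP kinase kinase gene *pbsA* (ASPWEDRAFT_51084) had a term of −0.17 ± 0.30, and both orthologues of the MAP kinase gene *hogA* had −0.31 ± 0.31 (ASPWEDRAFT_111477) and −0.64 ± 0.41 (ASPWEDRAFT_41261).

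The gene of the tyrosine phosphatase *ptpA* (ASPWEDRAFT_53169), whose yeast counterparts switch the HOG kinase off, was low in the combined treatment alone. It had 20.2, 19.5 and 32.2 RPKM in NaCl + sorbitol, 96.7, 56 and 76.1 in NaCl, 61.9, 118.4 and 107.0 in sorbitol, and 71.6, 60.4 and 82.5 in untreated cultures. All 3 combined libraries lay under the other 9. The combined level fell by 1.55 ± 0.28 on the log2 scale against untreated cultures (adjusted p = 0.00297), and the term was −2.01 ± 0.40 (adjusted p = 0.00134).

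Of the 2 transcription factor genes, *atfA* (ASPWEDRAFT_37015), for a basic leucine zipper factor that acts in stress responses, had a lost peak. Its levels were 40.2, 33.1 and 31.7 RPKM in NaCl + sorbitol, 298.9, 308.2 and 353.3 in NaCl, 139.9, 244.6 and 229.3 in sorbitol, and 26.4, 31.3 and 30 in untreated cultures. The combined libraries lay just over the untreated ones and far under every single-treatment library. Its term was −5.91 ± 0.33 (adjusted p = 2.12e-07), made of a NaCl change of 3.49 ± 0.24 and a sorbitol change of 2.70 ± 0.23, with a combined change of 0.29 ± 0.21 that was not significant (adjusted p = 0.335). The zinc finger factor gene *msnA* (ASPWEDRAFT_101996) had 25.6, 21.9 and 12.3 RPKM in NaCl + sorbitol and 17.1, 17.3 and 22.7 in untreated cultures, and its term of −0.02 ± 0.40 was not called.

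On the glycerol 3-phosphate route, *gfdA* (ASPWEDRAFT_104967) had the strongest term. The enzyme reduces dihydroxyacetone phosphate to glycerol 3-phosphate, the first step from glycolysis to glycerol. It had 138.2, 92.2 and 131.5 RPKM in NaCl + sorbitol, 1160, 782.3 and 1056 in NaCl, 482.0, 1452 and 805.9 in sorbitol, and 88.9, 105.6 and 94.6 in untreated cultures. Every single-treatment library was above every combined and untreated library, and the combined and untreated ranges overlapped. The term was −6.20 ± 0.51 (adjusted p = 2.65e-06). The combined change was 0.35 ± 0.33 (adjusted p = 0.455), against 3.41 ± 0.37 for NaCl and 3.14 ± 0.36 for sorbitol.

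The next enzyme, the phosphatase that frees glycerol, has 2 orthologues of *gppA*. The abundant one (ASPWEDRAFT_104044) had 91, 112.3 and 102.2 RPKM in NaCl + sorbitol, 42.7, 44.7 and 50.2 in NaCl, 65.2, 67.6 and 68.5 in sorbitol, and 51.5, 54.1 and 57.9 in untreated cultures. It was highest in the combined treatment, without overlap, and its term of 0.93 ± 0.20 (adjusted p = 0.00269) lay under the 2-fold limit. The scarce one (ASPWEDRAFT_673647), at 0.25 to 3.89 RPKM, had a term of −3.93 ± 0.79 (adjusted p = 0.00155). The glycerol kinase genes (*gcnA*, ASPWEDRAFT_47372 and ASPWEDRAFT_748248), which return glycerol to glycerol 3-phosphate, were not called, with terms of 0.20 ± 0.32 and 0.68 ± 0.63.

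**Figure D4:**
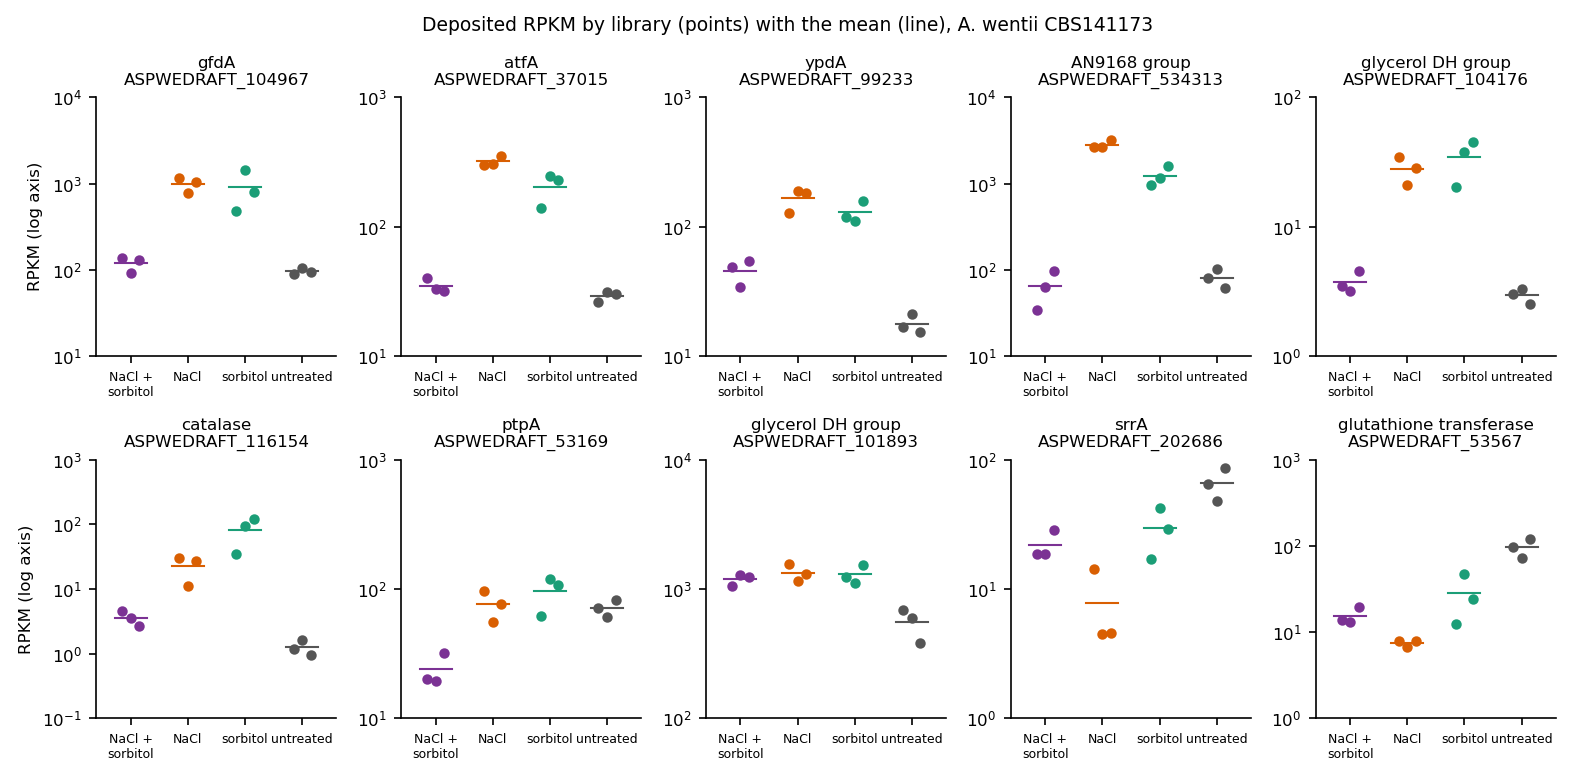
Deposited RPKM of 10 listed genes in each of the 12 libraries (points, log axis) with the mean of each group (line), for NaCl + sorbitol, NaCl, sorbitol and untreated cultures. In *gfdA*, *atfA*, the glycerol transport orthologue ASPWEDRAFT_534313 and the aldo-keto reductase ASPWEDRAFT_104176 the combined libraries sit near the untreated ones. In *ptpA* they sit under all others, and in *srrA* and ASPWEDRAFT_53567 all treated libraries sit under the untreated ones.

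The glycerol dehydrogenase group, aldo-keto reductases of which some reduce dihydroxyacetone or glyceraldehyde, had 6 negative (46.2%) and 1 positive term among 13 tested of 15 members, against 24.5% negative and 19.5% positive over all genes tested. Its clearest lost peak was ASPWEDRAFT_104176, with 3.49, 3.2 and 4.57 RPKM in NaCl + sorbitol, 34.8, 20.9 and 28.4 in NaCl, 20.2, 38.1 and 45.2 in sorbitol, and 3, 3.32 and 2.54 in untreated cultures (term −6.35 ± 0.45, adjusted p = 9.24e-07). ASPWEDRAFT_108056 had the same shape at a term of −4.06 ± 0.48 (adjusted p = 4.07e-05). The abundant ASPWEDRAFT_101893 reached a ceiling in place of a lost peak. It had 1048, 1290 and 1246 RPKM in NaCl + sorbitol, 1568, 1143 and 1310 in NaCl, 1243, 1121 and 1534 in sorbitol, and 691.1, 594.4 and 384.1 in untreated cultures. The 3 treated groups overlapped and lay over the untreated one, so its term was −1.30 ± 0.35 (adjusted p = 0.0081). ASPWEDRAFT_37490 was the member with a positive term, 1.72 ± 0.40 (adjusted p = 0.00398), and it had 11.4, 9.47 and 8.92 RPKM in NaCl + sorbitol against 2.52 to 5.37 RPKM in the other 9 libraries.

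The orthologues of AN9168, a glycerol transport gene of *A. nidulans*, had the largest share of called terms among the lists with 9 or more members tested. Of 9 tested, 7 were negative (77.8%, against 24.5% of all genes tested) and 0 positive. Of the 7, ASPWEDRAFT_134254, ASPWEDRAFT_173452 and ASPWEDRAFT_43563 were scarce, at 0.144 to 2.43 RPKM. In the lowest quartile of mean level 35% of all genes had a negative term. ASPWEDRAFT_534313 was by far the most abundant. It had 34.2, 63.8 and 98.1 RPKM in NaCl + sorbitol, 2626, 2626 and 3244 in NaCl, 963.6, 1157 and 1604 in sorbitol, and 79.9, 102.7 and 61.9 in untreated cultures. The combined libraries overlapped the untreated ones, and the lowest single-treatment library was far above both. The term was −9.28 ± 0.57 (adjusted p = 4.16e-07), with changes of −0.31 ± 0.35 for NaCl + sorbitol, 5.16 ± 0.41 for NaCl and 3.82 ± 0.39 for sorbitol.

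ASPWEDRAFT_35932 was nearly silent in untreated cultures, with 8, 7 and 0 reads, and its levels were 8.97, 6.42 and 5.64 RPKM in NaCl + sorbitol, 61.9, 382.4 and 261.1 in NaCl, and 33.8, 8.84 and 8.5 in sorbitol. Unlike ASPWEDRAFT_534313 it rose in the combined treatment, by 6.23 ± 0.96 on the log2 scale (adjusted p = 0.00134), and its term was −12.50 ± 1.25 (adjusted p = 1.09e-05). The sizes of both values rest on the few untreated reads. Its combined level did not differ detectably from that in sorbitol (−1.18 ± 0.68, adjusted p = 0.196). ASPWEDRAFT_174802 had a term of −7.25 ± 0.64 at 0.364 to 11.9 RPKM, and ASPWEDRAFT_112163 one of −6.41 ± 1.11 at 4.23 to 745 RPKM. The smallest of the 7, ASPWEDRAFT_173452 (−1.50 ± 0.55, adjusted p = 0.038), lost its call when any 1 of 10 libraries was left out, and with DESeq2 or limma-voom. How reads that match several members of a gene family were counted is not given in the sources used here, so the values of near-identical members could be shared between them.

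The remaining osmotic stress genes encode proton pumps and enzymes of trehalose. A scarce *pmaA* orthologue for the plasma membrane proton pump, ASPWEDRAFT_114988, had 1.38, 0.997 and 1.27 RPKM in NaCl + sorbitol, 4.49, 8.59 and 9.22 in NaCl, 4.29, 3.56 and 5.67 in sorbitol, and 1.17, 1.13 and 1.04 in untreated cultures (term −4.54 ± 0.43, adjusted p = 6.68e-06). The main pump gene ASPWEDRAFT_173501 had 1526, 1086 and 1412 RPKM in NaCl + sorbitol, 672.8, 751.1 and 737.3 in NaCl, 977.7, 498.8 and 544.8 in sorbitol, and 470.0, 752.7 and 489.7 in untreated cultures. Its combined libraries were above the other 9, a change of 1.26 ± 0.31 against untreated cultures (adjusted p = 0.0137), but its term of 0.73 ± 0.44 was not called. Among the genes of trehalose, another protective solute, ASPWEDRAFT_99274 of the synthase and phosphatase group had a term of 1.41 ± 0.41 (adjusted p = 0.0122). The trehalase gene *treB* (ASPWEDRAFT_33761) had −1.01 ± 0.25 (adjusted p = 0.00491), at the limit of 2-fold, and was under it when any 1 of 7 libraries was left out.

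Catalases, which break down hydrogen peroxide, had negative terms in 5 of 6 genes (83.3%, against 24.5% of all genes tested). The strongest was ASPWEDRAFT_116154, with 4.63, 3.52 and 2.63 RPKM in NaCl + sorbitol, 30.6, 11 and 27.1 in NaCl, 34.6, 93.1 and 120.2 in sorbitol, and 1.19, 1.65 and 0.968 in untreated cultures. The groups did not overlap, the combined libraries lying between the untreated and the single-treatment ones, and the term was −8.59 ± 0.71 (adjusted p = 2.74e-06). The *catC* orthologue ASPWEDRAFT_53830 had 42.7, 43.8 and 53.8 RPKM in NaCl + sorbitol, 261.9, 119.8 and 190.3 in NaCl, 144.3, 287.4 and 498.7 in sorbitol, and 27.1, 22.9 and 47.8 in untreated cultures, and a term of −5.18 ± 0.60 (adjusted p = 3.38e-05).

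The *catB* orthologue ASPWEDRAFT_41216 was instead low in the combined treatment alone. It had 52.2, 28.6 and 34.5 RPKM in NaCl + sorbitol, 311.2, 103.0 and 180.5 in NaCl, 139.1, 226.4 and 182.8 in sorbitol, and 185.9, 158.9 and 260.9 in untreated cultures. The combined level fell by 2.36 ± 0.39 on the log2 scale against untreated cultures (adjusted p = 0.00183), and the term was −2.13 ± 0.53 (adjusted p = 0.00548). The other called members were scarce. The *catA* orthologue ASPWEDRAFT_48635 had a term of −2.22 ± 0.50, and ASPWEDRAFT_66442, with 0 to 18 reads per library, one of −4.59 ± 0.97.

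Among the peroxidase genes, *ccp1* (ASPWEDRAFT_235979) for mitochondrial cytochrome c peroxidase had 267.9, 250.0 and 284.1 RPKM in NaCl + sorbitol, 1336, 498.5 and 898.3 in NaCl, 971.0, 1435 and 1541 in sorbitol, and 244.1, 187.5 and 633.8 in untreated cultures (term −3.57 ± 0.63, adjusted p = 0.000635). The catalase-peroxidase gene *cpeA* (ASPWEDRAFT_54185) varied more within groups than any of these. It had 4.58, 4.73 and 12.8 RPKM in NaCl + sorbitol, 236.5, 10.1 and 52.9 in NaCl, 148.8, 2230 and 2088 in sorbitol, and 38.9, 17.8 and 738.0 in untreated cultures. The combined libraries were low and alike, the other groups were spread over more than 10-fold, and the term of −6.17 ± 2.01 (adjusted p = 0.0232) was −4.50 (adjusted p = 0.0715) without NaCl replicate 1 and −5.93 without NaCl + sorbitol replicate 1 (adjusted p = 0.0556) or replicate 2 (adjusted p = 0.0567). ASPWEDRAFT_124254 was high in the combined treatment, at 3.03, 1.94 and 1.26 RPKM against 0.238 to 0.827 RPKM in the other 9 libraries (term 2.88 ± 0.66, adjusted p = 0.00344).

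Of 5 superoxide dismutase genes, 2 were called (40%, near the 44% of all genes tested). The abundant *sodA* orthologue ASPWEDRAFT_23769 had 2349, 2513 and 1969 RPKM in NaCl + sorbitol and 2149, 2236 and 2088 in untreated cultures, with a term of 0.50 ± 0.26. The *sodB* orthologue ASPWEDRAFT_487616 had a positive term of 2.08 ± 0.58 (adjusted p = 0.0106), and ASPWEDRAFT_104112 a negative one of −1.52 ± 0.44 (adjusted p = 0.0126).

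In the thioredoxin system, which hands electrons to peroxiredoxins, 3 of 16 tested genes had a negative and 2 a positive term, 31.2% called against 44% of all genes tested, a difference that was not tested. The thioredoxin reductase gene *trxR* (ASPWEDRAFT_166503) had 661.9, 464.5 and 608.1 RPKM in NaCl + sorbitol, 3668, 1220 and 2639 in NaCl, 2295, 4686 and 3186 in sorbitol, and 847.2, 861.7 and 1711 in untreated cultures. Its combined libraries were under the other 9, and its term was −3.60 ± 0.60 (adjusted p = 0.000429). The main *trxA* orthologue ASPWEDRAFT_38834 had 994.9, 838.1 and 741.5 RPKM in NaCl + sorbitol, 3002, 1851 and 2596 in NaCl, 2346, 2372 and 2482 in sorbitol, and 2548, 2429 and 2399 in untreated cultures. It thus differed from untreated cultures in the combined treatment (fell by 1.49 ± 0.23, adjusted p = 0.00122) and not detectably in NaCl (0.05 ± 0.22) or sorbitol (−0.13 ± 0.22), with a term of −1.41 ± 0.31 (adjusted p = 0.00293). Among the peroxiredoxin genes of the list, ASPWEDRAFT_472038 was called, with a term of 1.57 ± 0.42.

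Glutathione genes gave 2 negative and 1 positive term among 12 tested, 25% called against 44% of all genes tested, a difference that was not tested. The glutathione peroxidase gene *gpxA* (ASPWEDRAFT_104530) had 330.0, 300.9 and 197.9 RPKM in NaCl + sorbitol, 783.6, 662.0 and 789.6 in NaCl, 758.7, 633.1 and 692.4 in sorbitol, and 401.5, 467.3 and 371.0 in untreated cultures. Combined libraries were the lowest group without overlap, and the term was −2.09 ± 0.31 (adjusted p = 0.000189). The glutathione transferase gene ASPWEDRAFT_53567 had 13.7, 13 and 19.6 RPKM in NaCl + sorbitol, 7.98, 6.63 and 7.79 in NaCl, 12.4, 47.8 and 23.9 in sorbitol, and 95.9, 72.6 and 120.5 in untreated cultures. It is a floor, with all treated libraries under the untreated ones and a term of 2.91 ± 0.54 (adjusted p = 0.000878). The glutathione reductase gene *glrA* (ASPWEDRAFT_39921) was not called (−0.56 ± 0.27).

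Of the study's RT-qPCR genes, 4 of 11 tested (36.4%) had a negative and 2 a positive term, against 24.5% and 19.5% of all genes tested. The mannitol 2-dehydrogenase gene ASPWEDRAFT_105168, for an enzyme that interconverts mannitol and fructose, had 63.3, 73.1 and 97.5 RPKM in NaCl + sorbitol, 457.3, 240.4 and 339.6 in NaCl, 269.7, 331.8 and 286.3 in sorbitol, and 209.3, 191.3 and 206.9 in untreated cultures. The combined libraries were the lowest of the 12, and the term was −2.62 ± 0.33 (adjusted p = 6.59e-05). Mannitol-1-phosphate 5-dehydrogenase, the other mannitol gene (ASPWEDRAFT_117545), had a term of −0.65 ± 0.40. Both aldehyde dehydrogenase domain genes were called negative, ASPWEDRAFT_117870 at −3.74 ± 0.42 (10.8 to 89.6 RPKM) and ASPWEDRAFT_35534 at −6.00 ± 0.88 with 0 to 30 reads per library. The actin gene ASPWEDRAFT_168397 had a term of 1.03 ± 0.27 (adjusted p = 0.00796), just past the 2-fold limit, and its call was lost with library totals in place of TMM scaling (0.95) and when any 1 of 4 libraries was left out. The chitin synthase gene ASPWEDRAFT_189665, for a cell wall enzyme, had 78.3, 81.2 and 97.6 RPKM in NaCl + sorbitol, 88.8, 48.6 and 47.5 in NaCl, 73.6, 153.9 and 91.9 in sorbitol, and 184.3, 195.4 and 232.2 in untreated cultures, with a term of 1.50 ± 0.42 (adjusted p = 0.011).

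The 11 listed genes that were not tested had too few reads. ASPWEDRAFT_293907 of the thioredoxin group had 0 reads in the 3 NaCl + sorbitol and the 3 untreated libraries, against 3, 20 and 24 reads in NaCl and 7, 4 and 2 in sorbitol. ASPWEDRAFT_739303 of the glycerol transport group had 0 reads in NaCl + sorbitol, 13, 16 and 8 in NaCl, 5, 8 and 10 in sorbitol, and 0, 1 and 0 in untreated cultures.

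Outside the lists the largest negative terms that kept their sign and significance without any 1 library were those of ASPWEDRAFT_184914 and ASPWEDRAFT_66122, to which the files give no name. ASPWEDRAFT_66122 had 0.695, 0.696 and 0.629 RPKM in NaCl + sorbitol, 109.0, 85.9 and 95.7 in NaCl, 32.5, 13.2 and 27 in sorbitol, and 0.399, 0.497 and 0.143 in untreated cultures (term −13.14 ± 0.62, adjusted p = 1.07e-07). ASPWEDRAFT_184914 had 0 reads in the combined libraries, 132, 537 and 355 reads in NaCl, 28, 30 and 132 in sorbitol, and 3, 5 and 2 in untreated cultures. Its fitted term of −15.70 depends on the prior count. With the combined group set to 3 reads in all, the limit for counting error at a count of 0, and the other groups at their summed reads, it was −12.61, a value that also rests on the few untreated reads.

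The largest positive terms were those of ASPWEDRAFT_165275 and ASPWEDRAFT_43561, also without a name. ASPWEDRAFT_43561 had 7.24, 5.83 and 11.1 RPKM in NaCl + sorbitol, 0.213, 0.319 and 0.0616 in NaCl, 2.5, 0.521 and 3.57 in sorbitol, and 6.94, 7.46 and 2.46 in untreated cultures (term 6.68 ± 0.97, adjusted p = 0.000179). Its combined and untreated libraries overlapped, and all NaCl libraries lay under them. ASPWEDRAFT_165275 had 0, 6 and 8 reads in NaCl + sorbitol, 2, 0 and 2 in NaCl, 3, 0 and 1 in sorbitol, and 60, 44 and 89 in untreated cultures, so that its term of 7.27 ± 1.40 (adjusted p = 0.00116) rests on few reads in each treated group.

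Whether the term differed between CBS141173 and ′c *gfdB* was tested in 1 fit of their 24 libraries. The difference was called for 481 of 11094 genes (4.34%), of which 275 (2.48%) had a higher and 206 (1.86%) a lower term in CBS141173. In ′c *gfdB* alone the term was called negative for 2211 and positive for 1662 of 10975 genes tested, so most genes with a term in either strain were not shown to differ between the strains. These shares moved with single libraries, between 1.21% and 4.09% higher and between 1.14% and 2.81% lower. The share with a higher term was 1.64% without CBS141173 NaCl + sorbitol replicate 3, 1.21% without ′c *gfdB* untreated replicate 1 and 4.09% without ′c *gfdB* NaCl replicate 1. The share with a lower term was 1.21% without CBS141173 untreated replicate 1 and 1.22% without CBS141173 NaCl replicate 3. It was 2.81% without ′c *gfdB* NaCl replicate 1, 1.14% without ′c *gfdB* sorbitol replicate 3 and 1.21% without ′c *gfdB* NaCl + sorbitol replicate 3.

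Of the 117 listed genes, not all of which were tested, 7 had a called difference, beside 4.34% of all genes tested. These shares were not compared by a test. For *gfdA* the term was −6.08 ± 0.43 in CBS141173 and −3.80 ± 0.41 in ′c *gfdB*, a difference of −2.28 ± 0.56 (adjusted p = 0.0229) that was called in each of the 29 alternative fits. In ′c *gfdB* the gene had 110.3, 106.5 and 122.2 RPKM in NaCl + sorbitol, 1081, 584.7 and 892.4 in NaCl, 289.3, 288.2 and 297.0 in sorbitol, and 149.0, 153.3 and 123.6 in untreated cultures. Its combined and NaCl ranges overlapped those of CBS141173, while its sorbitol libraries lay under and its untreated ones over all those of CBS141173. The aldo-keto reductase gene ASPWEDRAFT_104176 had terms of −6.22 ± 0.45 in CBS141173 and −2.95 ± 0.45 in ′c *gfdB* (difference −3.27 ± 0.62, adjusted p = 0.00503), and the *gppA* orthologue ASPWEDRAFT_104044 terms of 1.06 ± 0.22 and −0.36 ± 0.22 (difference 1.41 ± 0.32, adjusted p = 0.0141). Both were called in each alternative fit.

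The other 4 differences were less firm. The term of *atfA* was −5.78 ± 0.33 in CBS141173 and −4.16 ± 0.32 in ′c *gfdB* (difference −1.62 ± 0.43, adjusted p = 0.0353), and the call was lost when any 1 of 13 of the 24 libraries was left out. The catalase gene ASPWEDRAFT_116154 had a difference of −3.78 ± 1.00 (adjusted p = 0.0342), the superoxide dismutase gene ASPWEDRAFT_104112 of −2.32 ± 0.60 (adjusted p = 0.0319) and the chitin synthase gene ASPWEDRAFT_189665 of 2.45 ± 0.66 (adjusted p = 0.0397). These calls were lost when any 1 of 12, 10 and 16 of the 24 libraries was left out, and that of ASPWEDRAFT_189665 also with library totals in place of TMM and with no filter on low counts. Over these fits the highest adjusted p was 0.0734 for *atfA*, 0.0732 for ASPWEDRAFT_116154, 0.0685 for ASPWEDRAFT_104112 and 0.107 for ASPWEDRAFT_189665.

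**Figure D5:**
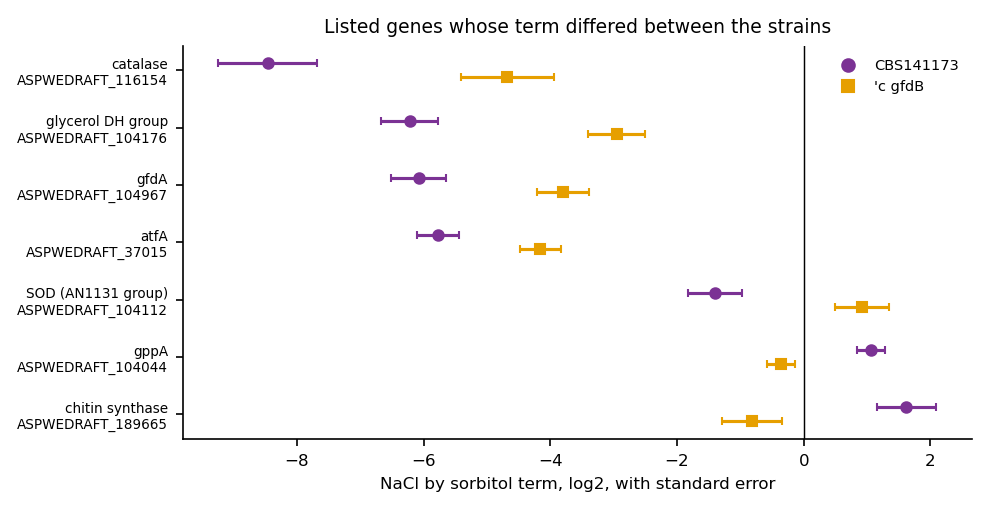
NaCl by sorbitol term on the log2 scale with its standard error in CBS141173 (circles) and ′c *gfdB* (squares) for the 7 listed genes whose term differed between the strains. In 4 genes both terms are negative and that of CBS141173 is the larger, and in the other 3 the terms of the strains have opposite signs.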

How the data were processed

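RNA of lyophilized mycelium was sequenced from TruSeq libraries as single reads. The authors aligned the reads with HISAT2 2.1.0 to the FungiDB genome of *A. wentii* and assigned them to genes with featureCounts, which gave the read counts they deposited. From these the authors computed RPKM in edgeR. Dividing each count by the deposited length and library total returned every RPKM (relative difference at most 5.2e-15). The 48 per-sample columns of *A. nidulans* were not used here. How strand and multiply matching reads were treated is not given in the sources used here. Counts were used for all tests and RPKM to show levels.

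Terms were tested by quasi-likelihood F in edgeR (filterByExpr, TMM, estimateDisp, glmQLFit, glmQLFTest) on the counts of the 12 CBS141173 libraries with 4 group means. The strain difference was fitted on 24 libraries with 8 group means. P-values were adjusted over all genes tested (Benjamini-Hochberg), and calls need an adjusted p under 0.05 and a log2 value beyond 1, the study's limits. A standard error is the log2 value divided by the square root of F. In simulated counts of 11020 genes the term test found 32%, 56%, 84% and 98% of 50 genes each at log2 1.5, 2, 3 and 4, with 4 false calls. In simulated counts of 11094 genes the test of the strain difference found 18%, 34%, 72% and 86%, with 4 false calls. Fewer genes were changed in these simulated counts than were called in the data. The adjustment of p was therefore stricter there for the term, and the shares found are not those of the data.

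Precision depends on the library totals of 13871785 to 32274107 reads and on the spread between replicates, which the standard errors take in. The limit used for ASPWEDRAFT_184914 at a count of 0 covers counting error only. Groups come from the sample labels. The labels number the replicates, and the paper names them as biological. Alternatives were DESeq2's size factors (RLE) or library totals in place of TMM, no filter or 1 CPM in 3 libraries, DESeq2, limma-voom, limma on log2(RPKM + 1) and log2(RPKM + 0.1), a 24-library fit, a replicate block and each library left out.

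The 117 listed genes are the orthologues in the study's lists and its RT-qPCR genes. Any of them could be named, and beyond them the first 2 IDs each way by size of a term that kept its sign and an adjusted p under 0.05 without any 1 library, because no table used here pairs these IDs with names. The strain, lists and rules were chosen with earlier results of these data known. Python 3.11.15 (matplotlib 3.10.9, pandas 2.3.3, numpy 2.4.6) and R 4.3.3 (DESeq2 1.42.0, limma 3.58.1, edgeR 4.0.16) were used.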

Additional observations from a re-analysis of the deposited data

Results flagged for a closer look

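The NaCl by sorbitol term of 7 of the 117 listed genes differed between CBS141173 and ′c *gfdB* by a test of the difference itself (edgeR's quasi-likelihood F-test on 24 libraries). Over all genes tested 4.34% were called. The difference, CBS141173 minus ′c *gfdB* in log2, was −2.28 for *gfdA* (ASPWEDRAFT_104967), −1.62 for *atfA* (ASPWEDRAFT_37015), 1.41 for the *gppA* orthologue ASPWEDRAFT_104044, −3.27 for the aldo-keto reductase gene ASPWEDRAFT_104176, −2.32 for the superoxide dismutase gene ASPWEDRAFT_104112, −3.78 for the catalase gene ASPWEDRAFT_116154 and 2.45 for the chitin synthase gene ASPWEDRAFT_189665. Those of *gfdA*, ASPWEDRAFT_104044 and ASPWEDRAFT_104176 stood with any 1 library left out, and the others did not. In sorbitol ASPWEDRAFT_104176 had 20.2, 38.1 and 45.2 RPKM in CBS141173, against 3.11, 3.84 and 4.7 RPKM in ′c *gfdB*. ASPWEDRAFT_116154 had 34.6, 93.1 and 120.2 RPKM in sorbitol in CBS141173, against 5.6, 7.95 and 4.94 RPKM in ′c *gfdB*.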

How the results depend on the processing

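The counts of negative and positive terms stayed within 1.5 times of 2700 and 2144 in each alternative tried. DESeq2 gave 2766 and 2261, limma on log2(RPKM + 1) 2412 and 1881, library totals without TMM 2826 and 1933, and 24 libraries in 1 fit 2602 and 2532. In the 24-library fit the median term of all genes was higher by 0.12 than the −0.04 of the 12 libraries. Replicate numbers do not pair the samples: 4 of 18 correlations between libraries of the same number were over 0.1 (−0.370 to 0.306), and 3 of 12 libraries correlated best with their own number. The fit with a replicate block gave 2594 negative and 2091 positive terms, and a strain difference for 1.99% of genes with a higher and 1.48% with a lower term in CBS141173. For that difference DESeq2 called 3.92% lower in place of 1.86%. Leaving out 1 library gave 1.14% to 2.81% lower and 1.21% to 4.09% higher, 37 to 42 negative and 10 to 15 positive listed genes, 89 to 202 lost troughs and 349 to 629 floors. The comparison of NaCl + sorbitol with untreated cultures, counted after the values were seen, ranged from 662 to 1169 genes higher and from 596 to 1120 lower. Of 53 named genes with a called term, 8 lost the call in some alternative and 0 changed sign, and 16 further named genes were called in some alternative only. The replicate block took the call from the terms of ASPWEDRAFT_184594 (adjusted p = 0.0713) and ASPWEDRAFT_173452 (0.0625), and from the strain differences of ASPWEDRAFT_104112 (0.0504), ASPWEDRAFT_116154 (0.0535) and ASPWEDRAFT_189665 (0.063). In simulated counts with 50 genes changed at each size, a term of 1.5 on the log2 scale was found for 32% of these genes. Far more genes were called in the data than were changed there, so this share is not that of the data. An uncalled term still does not show that fold changes multiply.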

Other observations

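The elongation factor gene ASPWEDRAFT_167845, which the study used as its RT-qPCR reference in *A. wentii*, was looked at after the values were seen. It had 318.0, 320.6 and 319.3 RPKM in NaCl + sorbitol, 411.5, 182.5 and 202.3 in NaCl, 143.4, 582.9 and 166.7 in sorbitol, and 402.5, 368.1 and 470.5 in untreated cultures, with a term of 0.83 ± 0.66 (edgeR's quasi-likelihood F-test, adjusted p = 0.323). Its spread within the sorbitol group, where replicate 2 was the highest, was wider than within NaCl + sorbitol.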
